A study of Mus musculus with 8 samples.

Results

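Bone morphogenetic protein (BMP) signalling was followed through 9 genes in colon tumours of mice, out of 20275 gene symbols counted: the ligands Bmp2, Bmp4, Bmp5 and Bmp7, the secreted antagonists Grem1 and Chrdl1, and the response genes Id1, Id2 and Id3. The 9 genes were chosen by name, by matching the symbol in the deposited count tables, and each matched 1 row. Single cells were index-sorted into 384-well plates and profiled by SORT-seq, a CEL-Seq2 method that counts the 3′ ends of transcripts with unique molecular identifiers (UMIs). All tumours grew from AKP organoids, a clonally expanded and genetically engineered colon organoid line, which were placed orthotopically in the cecum. There were 4 plates of FibCtrl mice and 4 plates of FibΔZeb1 mice, each plate from 1 mouse and counted as 1 replicate. FibΔZeb1 hosts carried floxed Zeb1 alleles and a tamoxifen-inducible CreERT2 driven in fibroblasts, FibCtrl hosts were the Cre-negative counterparts, and all mice of both groups received tamoxifen diet. The labels name the Cre driver as Col1a1 and the methods of the study as Col1a2. The Cre line was on an FvB background, and the hosts were littermates of matched age and both sexes. Sorting took EPCAM-positive, CD45-positive and negative cells, and the EPCAM gate does not separate organoid-derived tumour cells from host epithelium.

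BMP ligands are secreted proteins of the TGF-β superfamily that bind paired type I and type II receptor kinases. The receptors phosphorylate SMAD1 and SMAD5, which join SMAD4 and switch on target genes, among them the Id genes. ID proteins carry a helix-loop-helix but no DNA-binding region, so that they hold basic helix-loop-helix factors away from DNA. In the colon, BMP activity is known to be low at the crypt base, where stromal antagonists such as gremlin 1 are secreted, and high towards the surface.

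By the GENCODE M21 annotation of GRCm38, all 9 are protein-coding genes. The ligand genes lie at chr2:133552159-133562885 (Bmp2, plus strand), chr14:46383520-46390669 (Bmp4, minus), chr9:75775364-75900310 (Bmp5, plus) and chr2:172868012-172940321 (Bmp7, minus). The antagonist genes lie at chr2:113746164-113758646 (Grem1, minus) and chrX:143285674-143394262 (Chrdl1, minus), and the response genes at chr2:152736251-152737410 (Id1, plus), chr12:25093799-25097140 (Id2, minus) and chr4:136143497-136145755 (Id3, plus). Promoter sequence was read from RefSeq for the build GRCm38.p6, which held entries for Bmp4, Bmp5, Grem1, Id2 and Id3. The 250 bases before the start of Bmp4 (chr14:46390670-46390919, minus strand), Grem1 (chr2:113758649-113758898, minus strand) and Id2 (chr12:25096093-25096342, minus strand) are shown because they hold a match to a motif of this pathway or of the deleted factor, and are written 5′ to 3′ in the direction of the gene. The RefSeq start of Id2 used here lies inside the GENCODE span of the gene. Capitals mark the matches.
Bmp4: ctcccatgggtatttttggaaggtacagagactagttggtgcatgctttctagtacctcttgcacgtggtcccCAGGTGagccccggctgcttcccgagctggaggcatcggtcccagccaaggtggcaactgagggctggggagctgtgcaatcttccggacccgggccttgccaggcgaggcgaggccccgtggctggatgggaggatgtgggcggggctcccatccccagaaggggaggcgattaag
Grem1: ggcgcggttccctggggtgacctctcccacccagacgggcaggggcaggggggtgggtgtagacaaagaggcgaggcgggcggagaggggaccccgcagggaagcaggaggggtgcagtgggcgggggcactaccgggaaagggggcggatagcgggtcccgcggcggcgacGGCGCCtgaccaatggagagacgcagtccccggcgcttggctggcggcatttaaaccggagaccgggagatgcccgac
Id2: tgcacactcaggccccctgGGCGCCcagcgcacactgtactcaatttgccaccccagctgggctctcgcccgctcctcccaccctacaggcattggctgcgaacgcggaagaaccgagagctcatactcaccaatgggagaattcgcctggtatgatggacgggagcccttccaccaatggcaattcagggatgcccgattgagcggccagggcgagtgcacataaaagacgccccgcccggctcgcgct
The capitals in Bmp4, which read CAGGTG on the strand shown, are CACCTG on the other strand, the E-box bound by ZEB1, 177 bases before the start. The capitals in Grem1 and Id2 are GGCGCC, the core of the BMP response element, 78 and 231 bases before the start. Both strands were searched, and the motifs share no letters in these windows. CACCTG occurred in 17.2% and GGCGCC in 9.59% of 32851 promoter windows of the same length. A match is a description of letters and not a binding site. The windows of Bmp5 and Id3 held neither run of letters.

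Of 3072 wells, 1831 passed the filters on depth and mitochondrial share. Marker genes that excluded the members named 437 epithelial, 746 immune, 145 fibroblast, 36 mesothelial and 24 pericyte wells, after removal of 37 fibroblast-like wells that carried Ptprc or Epcam. Plates held 981881 to 5905188 cell transcripts, and FibCtrl replicate 2 stood apart as the shallowest, with 98 wells kept. The epithelial wells of FibCtrl replicate 1 and FibΔZeb1 replicate 1 also stood apart, since 49 of 56 and 39 of 47 formed 1 cluster with 1 well on all other plates. The classes carried their markers: the 10 fibroblast markers summed to 76590 counts per 1000000 transcripts (CPM) in fibroblast wells against 1653 in epithelial and 2965 in immune wells, and the 10 epithelial markers to 6161 CPM in epithelial against 160 in fibroblast and 419 in immune wells. Endothelial markers stayed at 8.90 CPM in fibroblast wells. In neutrophils the epithelial markers stood at 12.02% of the epithelial level. Fibroblast wells reached the minimum of 10 on 5 plates only, FibCtrl replicates 1 and 4 and FibΔZeb1 replicates 1, 3 and 4.

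All 9 genes were detected, but at very different depth. Id3 gave 8008 transcripts in the kept wells, Id2 5850, Id1 4027, Bmp4 2682, Bmp2 1418 and Bmp7 415. Grem1 gave 141, Chrdl1 72 and Bmp5 12 transcripts, so statements on these 3 rest on few molecules. The share of transcripts found in epithelial wells was 89.6% for Bmp2, 86.0% for Bmp7, 83.4% for Bmp4, 79.3% for Id1 and 70.8% for Chrdl1. Grem1 was the exception, with 70.2% of its transcripts in fibroblast wells. Id2 was divided between epithelial (48.7%) and immune wells (39.3%), and 19.3% of Id3 lay in fibroblast wells. Epithelial wells were many and deep, so the comparisons below use CPM, the transcripts of a gene per 1000000 non-mitochondrial transcripts of the same wells.

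The ligands Bmp2, Bmp4 and Bmp7 were found mainly in the epithelial wells of these tumours. Bmp4, which signals mainly through the type I receptors BMPR1A and BMPR1B, reached 218, 416, 137 and 30.4 CPM in epithelial wells of FibCtrl replicates 1 to 4 and 396, 75.9, 92.2 and 87.2 CPM in those of FibΔZeb1 replicates 1 to 4. The same plates gave at most 19.4 CPM in immune wells, so the 2 compartments did not overlap. In the 5 fibroblast sums Bmp4 lay between 7.06 and 31.1 CPM, below the epithelial value of the same plate each time. By edgeR's quasi-likelihood test with the plate as a block, Bmp4 was higher in epithelial than in immune wells by 3.55 on the log2 scale (SE 0.36, adjusted p = 1.36e-07). In fibroblasts it fell by 2.49 (SE 0.41, adjusted p = 6.50e-05) relative to epithelial wells. The call against epithelial wells was lost when wells were classed by summed markers instead of clusters (log2 difference -0.82, adjusted p = 0.162).

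Bmp2, the closest relative of Bmp4, ranged from 28.3 to 161 CPM over the 8 epithelial sums, with a mean of 94.5 ± 48.8 (SD, n = 8). It exceeded the immune value of the same plate on 8 of 8 plates (exact sign-flip permutation test, two-sided, p = 0.00781, the smallest possible), although the lowest epithelial plate lay below the highest immune plate. The log2 difference was 2.37 (SE 0.42, adjusted p = 8.66e-05 by edgeR). Fibroblast sums held 0 to 10.7 CPM and the log2 difference from epithelial wells was -3.36 (SE 0.57, adjusted p = 9.33e-05). Bmp7, a ligand that signals also through ACVR1, was the weakest of these 3 ligands, with 11.9 to 35.3 CPM on 7 epithelial plates and 80.4 CPM on FibCtrl replicate 3. It differed from immune wells by 2.79 (SE 0.50, adjusted p = 0.000119) and from fibroblasts by -2.21 (SE 0.58, adjusted p = 0.00486). Between fibroblast and immune wells none of the 3 ligands passed the threshold, with log2 differences of -0.98 (SE 0.66) for Bmp2, 1.06 (SE 0.49) for Bmp4 and 0.57 (SE 0.77) for Bmp7.

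Over the single wells, Bmp4 was found in 250 of 437 epithelial wells (57.2%), Bmp2 in 195 (44.6%) and Bmp7 in 116 (26.5%). A small part of the epithelial wells held 50% of the transcripts, 31 wells for Bmp4, 23 for Bmp2 and 24 for Bmp7. After thinning each well to 1000 transcripts, Bmp4 was left in 12.6% of epithelial wells (exact binomial interval 9.60 to 16.2) against 1.39% (0.671 to 2.55) of immune wells, at median depths before thinning of 23656 and 2843.5 transcripts. In fibroblasts 38.1% of the 121 Bmp4 transcripts came from 1 well, on FibCtrl replicate 2, a plate with 3 fibroblast wells that entered no test. The 5 tested sums do not include it.

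Outside the epithelium the ligands marked other cells. Mesothelial wells, which line the serosal surface, held 138 CPM of Bmp4 over 36 wells (95% exact Poisson interval 117 to 162), an interval that overlapped that of epithelial wells (163, 157 to 170). Their 3 plates with at least 5 wells ranged from 31.2 to 153 CPM, and their summed epithelial markers stood at 13.3% of the epithelial level. Macrophages held 38.8 CPM of Bmp2 (29.7 to 49.8), and no other immune class exceeded 10.97 CPM. This Bmp2 was uneven: 23 macrophage wells led by Alox15, Saa3 and Serpinb2 gave 118 CPM (75.5 to 175) and the 113 wells led by the complement genes C1qa, C1qb and C1qc gave 27.0 CPM (19.03 to 37.3). Of the 23 wells, 17 came from FibCtrl replicate 3. On that plate Bmp2 was 165 CPM in these 17 wells and 103 CPM in 9 wells of the C1qa cluster. The C1qa cluster ranged from 0 to 34.7 CPM on its other plates with at least 5 wells. The part of the plate in the difference between the clusters was not tested. Bmp5 was counted 12 times in 8 wells, 6 of them transcripts of fibroblasts marked by Dpt and Lum, and 1 each in epithelial, immune and pericyte wells. Its level in fibroblasts was 1.72 CPM (0.632 to 3.75).

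**Figure D1:**
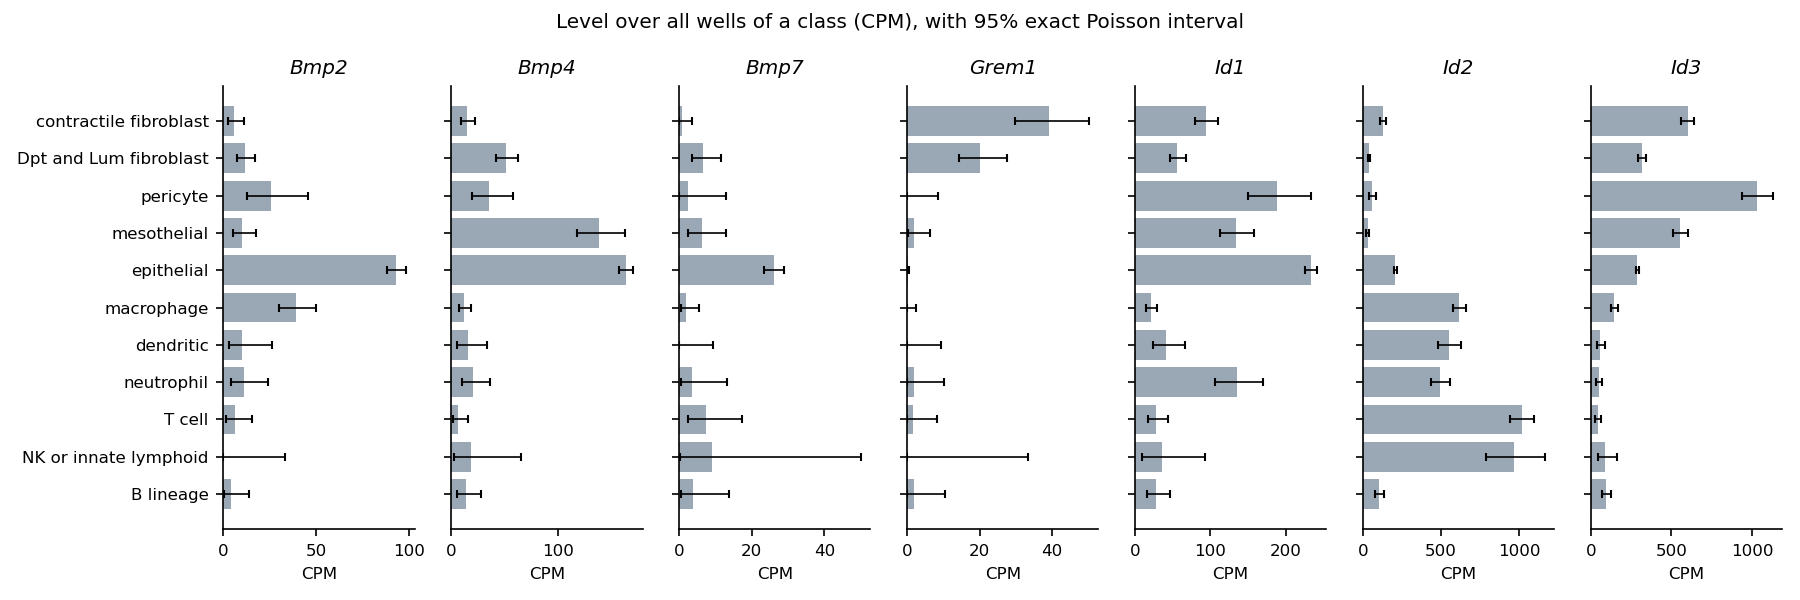
Level of 7 members (CPM, horizontal axes, each on its own scale) over all wells of 11 classes, with 95% exact Poisson intervals for counting error. Bmp2, Bmp4 and Bmp7 peaked in epithelial wells, Grem1 in both fibroblast subtypes, Id2 in T cells and NK or innate lymphoid cells and Id3 in pericytes.

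The antagonist Grem1, which traps BMP2, BMP4 and BMP7 before they reach a receptor, was found in few fibroblasts. It was found in 13 of 145 fibroblast wells (8.97%), and 73.8% of its 99 fibroblast transcripts came from 5 wells. Per plate it reached 12.6 and 43.1 CPM in FibCtrl replicates 1 and 4 and 10.2, 23.1 and 0 CPM in FibΔZeb1 replicates 1, 3 and 4, so the genotypes overlapped. Fibroblasts exceeded the epithelial wells of the same plate on 4 of 5 plates and held no transcript on the other (exact sign-flip permutation test, two-sided, p = 0.125, where 5 plates allow no less than 0.0625). All 437 epithelial wells together held 3 Grem1 transcripts and all 746 immune wells 3. Grem1 lay under the expression filter of the class fit. Without that filter its log2 difference was 5.93 (SE 0.85, adjusted p = 8.04e-07 by edgeR) against epithelial and 4.50 (SE 0.91, adjusted p = 0.000179) against immune wells, values that depend on the prior count because most of those sums were 0.

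Both fibroblast subtypes held Grem1. Contractile fibroblasts, marked by Acta2, Tagln and Tnc, gave 39.0 CPM over 78 wells (29.8 to 50.2), and fibroblasts marked by Dpt and Lum gave 20.1 CPM over 67 wells (14.3 to 27.4). The intervals did not overlap, but they cover counting error only, and plates with at least 5 wells of a subtype ranged from 0 to 262 CPM and from 0 to 22.2 CPM. Both values rested on few wells. Of the 60 contractile transcripts 30 came from 3 wells of FibCtrl replicate 4 and 15 from 1 well of FibCtrl replicate 3, and of the 39 transcripts of the other subtype 21 came from 2 wells of FibCtrl replicate 2. Over the 3 plates with at least 10 contractile wells the mean was 15.4 ± 8.66 CPM (SD, n = 3). Pericytes, which share contractile genes, held no Grem1 transcript, which allows up to 8.56 CPM at the upper exact Poisson limit.

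Chrdl1, a chordin-like antagonist that binds BMP ligands, came mostly from 2 tumours. Epithelial wells of FibCtrl replicate 3 held 37 of the 51 epithelial transcripts and those of FibΔZeb1 replicate 2 held 11. The plate levels were 0.683, 0, 26.8 and 0 CPM in FibCtrl replicates 1 to 4 and 0, 7.53, 0 and 0.692 CPM in FibΔZeb1 replicates 1 to 4. On FibCtrl replicate 3, 29 transcripts lay in epithelial cluster 3, led by Tgm3 and Bpifb1, and 8 in cluster 2, led by Peg3 and Prss56. Fibroblasts held 6 Chrdl1 transcripts, all in wells of the Dpt and Lum subtype, and contractile fibroblasts none.

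The 3 Id genes differed in where they were found. Id1, like Bmp2, Bmp4 and Bmp7, was higher in epithelial than in immune and fibroblast wells. Epithelial sums held 324, 166, 230 and 146 CPM in FibCtrl replicates 1 to 4 and 366, 168, 121 and 309 CPM in FibΔZeb1 replicates 1 to 4. Immune sums held 36.0 to 74.9 CPM and fibroblast sums 21.3 to 123 CPM. Epithelial and immune plates did not overlap, with a log2 difference of 2.16 (SE 0.27, adjusted p = 1.45e-06 by edgeR). In fibroblasts Id1 fell by 1.495 (SE 0.30, adjusted p = 0.000472) relative to epithelial wells. Pericytes followed at 188 CPM (149 to 234), then neutrophils at 135 CPM (106 to 170) and mesothelial wells at 134 CPM (113 to 157), and these neighbours overlapped in their intervals. Neutrophil wells were the shallowest of the named classes, with a median of 1889 transcripts. Their epithelial markers stood at 12.02% of the epithelial level, and the part of these in the Id1 value was not tested.

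Id2, which is needed for innate lymphoid cells and other lymphoid and myeloid lineages, was a gene of immune cells. Immune sums ranged from 433 to 867 CPM, epithelial sums from 121 to 324 CPM and fibroblast sums from 15.8 to 141 CPM, and immune plates did not overlap with either of the others. The log2 difference was -1.91 (SE 0.26, adjusted p = 5.01e-06 by edgeR) for epithelial and -2.95 (SE 0.35, adjusted p = 1.39e-06) for fibroblast against immune wells. Fibroblasts also lay below epithelial wells on 5 of 5 plates (log2 difference -1.03, SE 0.33, adjusted p = 0.0160), a call that was lost without FibΔZeb1 replicate 1 (adjusted p = 0.0592) or replicate 3 (adjusted p = 0.0582).

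Over all wells, Id3 was the highest of the 3 Id genes in fibroblasts (443 CPM) and in epithelial wells (287 CPM). It reached 623 and 220 CPM in fibroblasts of FibCtrl replicates 1 and 4 and 640, 257 and 286 CPM in those of FibΔZeb1 replicates 1, 3 and 4. On each of the 5 plates the fibroblast value was the highest of the 3 compartments. Epithelial sums held 135 to 448 CPM and immune sums 36.2 to 214 CPM. Relative to epithelial wells the log2 difference was 0.94 (SE 0.25, adjusted p = 0.00471 by edgeR), and relative to immune wells 2.27 (SE 0.27, adjusted p = 1.42e-06). Epithelial wells in turn exceeded immune wells by 1.32 (SE 0.23, adjusted p = 8.70e-05). Pericytes held the highest level, 1028 CPM (935 to 1129), followed by contractile fibroblasts (600, 562 to 640), mesothelial wells (556, 513 to 601) and Dpt and Lum fibroblasts (319, 294 to 345). Contractile fibroblasts and mesothelial wells could not be ordered by their intervals, nor could Dpt and Lum fibroblasts and epithelial wells (287, 278 to 296). Plates with at least 5 contractile wells ranged from 27.3 to 1182 CPM, so that the subtypes overlapped between plates.

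Among the 6 members that passed the expression filter, Bmp2, Bmp4, Bmp7, Id1 and Id3 were called higher in epithelial than immune wells and Id2 lower. Over all 10229 genes tested, 29.5% were called higher in epithelial and 25.9% higher in immune wells. Against epithelial wells, 1 member (Id3) was higher in fibroblasts and 5 lower, where 21.0% of genes were called higher in fibroblast and 21.5% higher in epithelial wells. Against immune wells, Id3 was higher and Id2 lower in fibroblasts, beside 22.5% of genes called higher in fibroblast and 21.9% higher in immune wells. The median log2 difference of the 6 members was 2.27 for epithelial against immune wells (0.08 over all genes), -1.85 for fibroblast against epithelial wells (-0.09) and 0.62 for fibroblast against immune wells (-0.03). Bmp5, Grem1 and Chrdl1 were not tested in this fit. The filter keeps a gene that is well counted in 1 class alone, so a gene can enter through the class where it is high.

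**Figure D2:**
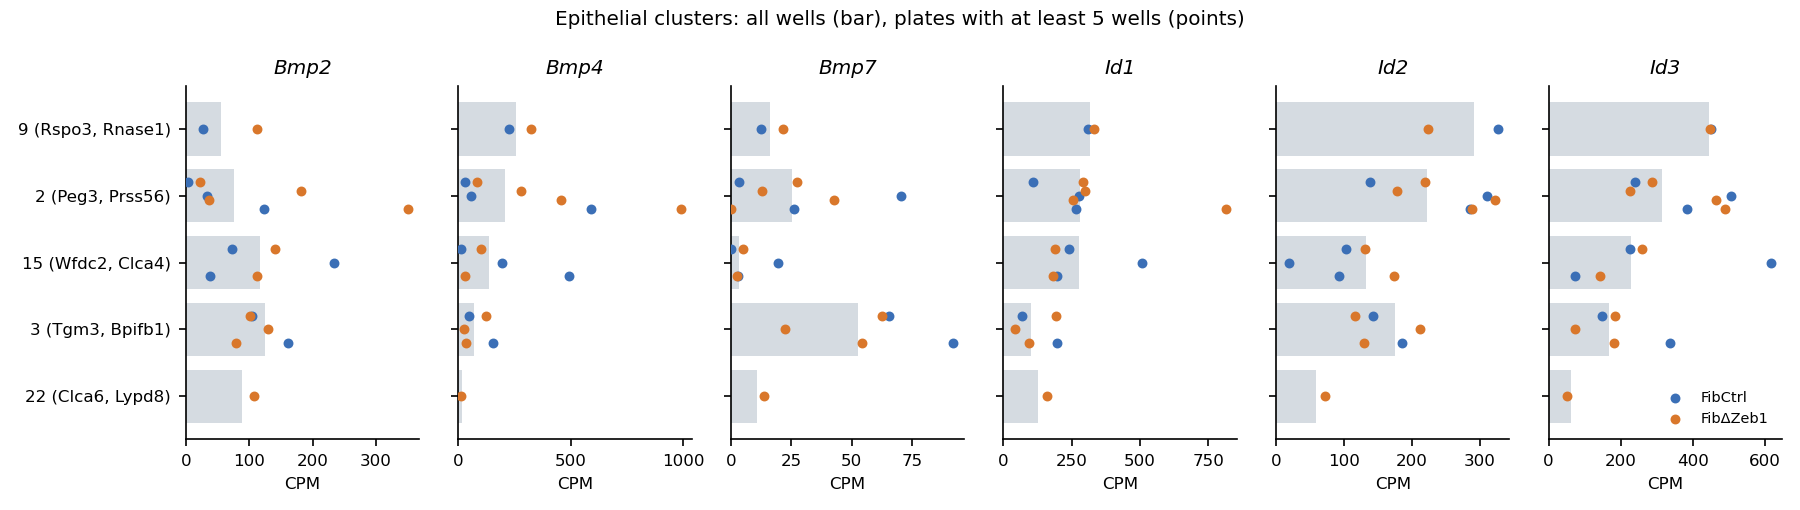
Level of 6 members (CPM, horizontal axes, each on its own scale) in the 5 epithelial clusters, named by leading genes. Bars are all wells of a cluster and points are plates with at least 5 of its wells, coloured by genotype. Over all wells, Bmp7 was highest in cluster 3 and Bmp4, Id1 and Id3 were highest in cluster 9, which came from the 2 plates numbered 1.

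Within the epithelium the ligands did not move together. Clusters were formed without the members and pathway genes, and their values are descriptions over wells of unequal plates. Bmp7 stood at 52.5 CPM in cluster 3 (45.7 to 60.01) and at 3.43 CPM in cluster 15 (1.57 to 6.51), led by Wfdc2 and Clca4, whereas Bmp2 was similar in both, at 125 CPM (115 to 137) and 117 CPM (104 to 130). On the 5 plates with at least 5 wells of cluster 3 Bmp7 ranged from 22.6 to 92.2 CPM and on the 5 of cluster 15 from 0 to 19.6 CPM, so these plate ranges did not overlap. Bmp4 was highest in cluster 9 (256 CPM, 240 to 271), led by Rspo3 and Rnase1, and in cluster 2 (210 CPM, 192 to 229).

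Id1 and Id3 were highest in cluster 9 as well, at 316 CPM (299 to 333) and 445 CPM (425 to 466), and lower in cluster 3, at 102 CPM (92.1 to 112) and 167 CPM (155 to 180). Cluster 9 was 49 wells of FibCtrl replicate 1 and 39 of FibΔZeb1 replicate 1, which gave 224 and 323 CPM of Bmp4, 311 and 333 CPM of Id1 and 450 and 448 CPM of Id3. On FibΔZeb1 replicate 1, 5 wells of cluster 2 gave more, at 990 CPM of Bmp4, 815 CPM of Id1 and 489 CPM of Id3. The part of these plates in the values of cluster 9 was not tested. Cluster 22, led by the colonocyte genes Clca6, Lypd8 and Guca2a, held the least Bmp4 (6 transcripts, with an interval of 5.87 to 34.8 CPM) and Id3 (61.3 CPM, 38.9 to 92.0), and 26 of its 30 wells came from FibΔZeb1 replicate 2. Cluster 2 was spread over 7 plates with at least 5 wells, and there Bmp4 ranged from 29.5 to 990 CPM and Id3 from 226 to 507 CPM.

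**Figure D3:**
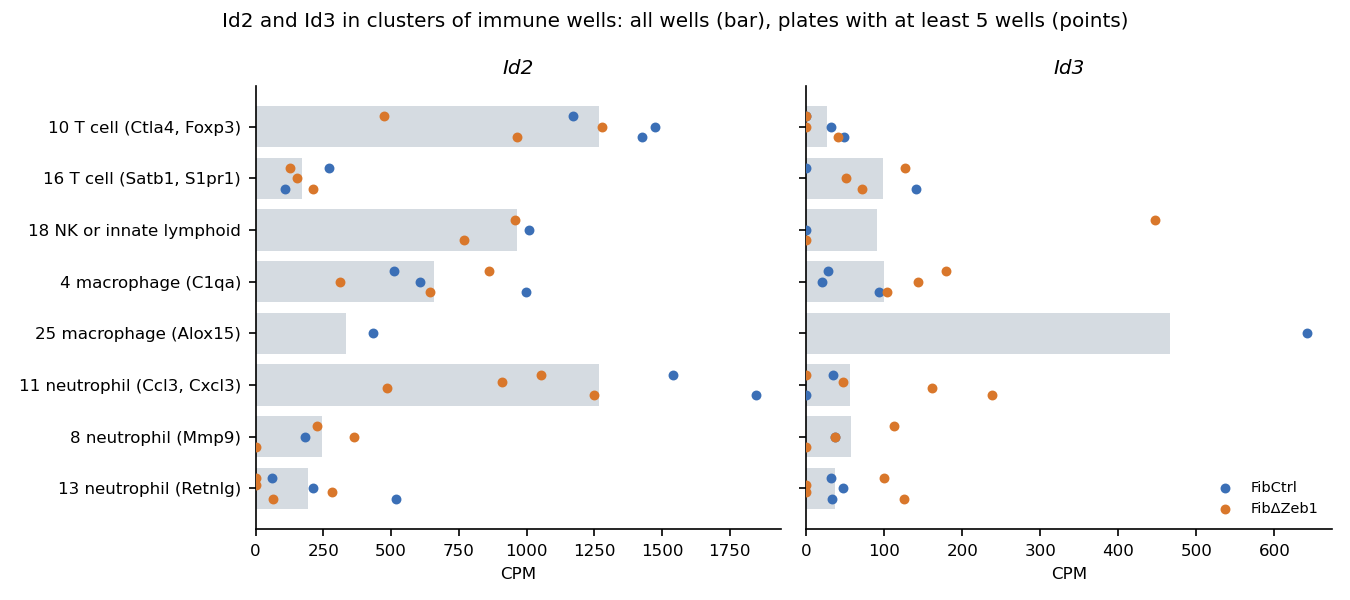
Level of Id2 and Id3 (CPM, horizontal axes) in 8 clusters of immune wells, named by class and leading genes. Bars are all wells and points are plates with at least 5 wells of the cluster, coloured by genotype. Id2 was high in T cells led by Ctla4 and Foxp3 and in neutrophils led by Ccl3 and Cxcl3, and Id3 in macrophages led by Alox15.

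Id2 separated clusters of the same immune class. T cells led by Ctla4, Icos and Foxp3, genes of activated and regulatory T cells, held 1266 CPM (1171 to 1367) over 87 wells, and T cells led by Satb1 and S1pr1, genes of naive and circulating T cells, held 171 CPM (111 to 250) over 52 wells. Plates with at least 5 wells ranged from 475 to 1475 CPM in the first and from 109 to 271 CPM in the second, with no overlap. Neutrophils led by the chemokine genes Ccl3 and Cxcl3 held 1267 CPM of Id2 (1089 to 1465), against 245 CPM (183 to 322) in those led by Mmp9 and 193 CPM (136 to 266) in those led by Retnlg and S100a8. The plate ranges of the first and the last of these overlapped narrowly (484 to 1847 and 0 to 519 CPM). NK or innate lymphoid wells held 964 CPM (790 to 1165), B lineage wells 106 CPM (80.1 to 138).

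Id3 ran the other way in T cells, with 27.0 CPM (14.8 to 45.3) in the Foxp3 cluster and 98.4 CPM (55.1 to 162) in the Satb1 cluster, although its plate ranges overlapped. In macrophages Id3 was 466 CPM (377 to 570) in the Alox15 cluster and 99.3 CPM (83.3 to 118) in the C1qa cluster. Of the 23 Alox15 wells, 17 came from FibCtrl replicate 3, where they held 74 of the 83 immune Id3 transcripts. On that plate Id3 was 642 CPM in the Alox15 cluster and 20.6 CPM (2 transcripts) in 9 wells of the C1qa cluster. An unnamed cluster led by Mmp12 and Arg1 held 966 CPM of Id2 (826 to 1122) and 22.7 CPM of Id3 (6.19 to 58.2).

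The comparison of genotypes asks whether loss of Zeb1 in fibroblasts went with other BMP gene levels in the fibroblasts or in their neighbours. Zeb1 itself was counted at 92.3 and 83.4 CPM in FibCtrl and 43.6, 47.9 and 28.3 CPM in FibΔZeb1 fibroblasts, with no overlap between the genotypes (exact permutation test, two-sided, p = 0.1, the smallest that 2 against 3 plates allow). The log2 difference was -1.13 (SE 0.29, adjusted p = 0.467 by edgeR). Tags of the 3′ end need not lie in the deleted part, so the level is no check of the deletion. In FibΔZeb1 fibroblasts 1 of 8228 genes was called (0.0122%), Aldh1a2, an enzyme of retinoic acid synthesis, with a log2 difference of 3.89 (SE 0.36, adjusted p = 0.0416). This count ran from 0 to 325 over the alternatives, and was 0 without any 1 of the FibΔZeb1 plates, 7 without FibCtrl replicate 1 and 4 without FibCtrl replicate 4. At an unadjusted p under 0.05 there were 487 genes. In epithelial wells 0.00% of 10311 genes and in immune wells 0.00% of 6369 genes were called. In those compartments 186 and 153 genes had an unadjusted p under 0.05 by edgeR, and DESeq2 called 1 gene in each.

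No member was called between the genotypes in any compartment. In fibroblasts the largest differences were Grem1 (log2 -1.15, SE 0.85, adjusted p = 0.959 by edgeR) and Id1 (log2 -1.03, SE 0.53, adjusted p = 0.880). Id1 read 123 and 60.4 CPM in FibCtrl and 78.4, 21.3 and 35.3 CPM in FibΔZeb1 fibroblasts, so that the groups overlapped, and its log2 difference stayed between -1.79 and -0.40 over 13 alternatives. Bmp4 differed by -0.34 (SE 0.69), Id2 by 0.33 (SE 0.72) and Id3 by -0.13 (SE 0.53), with adjusted p of 0.992 for each. The share of contractile wells among the fibroblasts of these plates was 42.2% and 23.1% in FibCtrl replicates 1 and 4 and 91.7%, 58.8% and 40% in FibΔZeb1 replicates 1, 3 and 4, and the groups overlapped. Its part in the values of Bmp4, Grem1, Id1, Id2 and Id3, whose intervals over all wells did not overlap between the subtypes, was not tested. Id2 stood at 127 CPM (110 to 146) in contractile and 38.1 CPM (29.9 to 47.8) in Dpt and Lum fibroblasts. Bmp4 stood at 14.3 CPM (8.97 to 21.7) and 50.9 CPM (41.4 to 62.0), and 46.6% of its Dpt and Lum transcripts came from 1 well. The 2 FibCtrl plates left out held 3 and 9 fibroblast wells, with 21 and 15 Grem1 transcripts, and FibΔZeb1 replicate 2 held 6 wells with none.

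In epithelial wells no member passed the threshold, with log2 differences of 0.55 (SE 0.48) for Bmp2, -0.30 (SE 0.78) for Bmp4, -0.53 (SE 0.57) for Bmp7, 0.16 (SE 0.40) for Id1, -0.02 (SE 0.32) for Id2 and -0.17 (SE 0.46) for Id3, each with an adjusted p of 1.0 by edgeR. Bmp2 averaged 77.3 ± 46.7 CPM in FibCtrl and 112 ± 50.9 CPM in FibΔZeb1 (SD, n = 4 each, exact permutation test, two-sided, p = 0.314). Its difference was 81.3 CPM on the first flow cell and -12.3 CPM on the second, so it did not hold within batches. Bmp4 averaged 200 ± 163 and 163 ± 156 CPM (exact permutation p = 0.686). A p that misses the threshold does not show that the genotypes were alike.

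In immune wells the Id2 plates of the genotypes did not overlap. The share of all genes whose immune plates did not overlap is not given here. The 4 FibCtrl plates held 711, 867, 636 and 670 CPM and the 4 FibΔZeb1 plates 582, 433, 467 and 530 CPM. The means were 721 ± 102 and 503 ± 66.5 CPM (SD, n = 4 each), a difference of -218 CPM (exact permutation test, two-sided, p = 0.0286, the smallest that 4 against 4 plates allow, among 27 such tests of a member in a class). The difference was -281 CPM on the first and -154 CPM on the second flow cell. By edgeR, fitted across all genes, it was -0.54 (SE 0.26, unadjusted p = 0.0638, adjusted p = 1.0), and the result fails the correction. At an unadjusted p under 0.05 there were 153 of 6369 genes, and Id2 was not among them. With wells classed by summed markers the log2 difference was 0.06.

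The make-up of the immune wells varied between plates. T cells made up 38.7%, 8.57%, 22.5% and 22.7% of immune wells on FibCtrl replicates 1 to 4 and 17.0%, 11%, 11.6% and 8.77% on FibΔZeb1 replicates 1 to 4, so the genotypes overlapped, and FibCtrl replicate 2, the highest plate in Id2, had the lowest T cell share. Wells of the Id2-high Foxp3 cluster numbered 29, 2, 10 and 20 against 15, 1, 5 and 5. Within T cells Id2 held 1113, 1033 and 1145 CPM on the 3 FibCtrl plates with at least 10 T cell wells and 869, 867, 793 and 372 CPM on the FibΔZeb1 plates, which did not overlap. The share of all genes whose T cell plates did not overlap is not given here. In the Foxp3 cluster FibCtrl plates with at least 5 wells held 1427, 1475 and 1171 CPM. Such FibΔZeb1 plates held 963, 1277 and 475 CPM, an overlap. In the Satb1 cluster they held 109 and 271 CPM against 214, 154 and 126 CPM, which overlapped too. Macrophages (479 to 999 CPM against 312 to 668 CPM) and neutrophils (247 to 1153 CPM against 349 to 508 CPM) overlapped on the plates with at least 10 of their wells. The part of the make-up in the difference was not tested. The other members with enough counts in immune wells, Id1 and Id3, differed by -0.08 (SE 0.32) and -0.00 (SE 0.50) and overlapped.

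**Figure D4:**
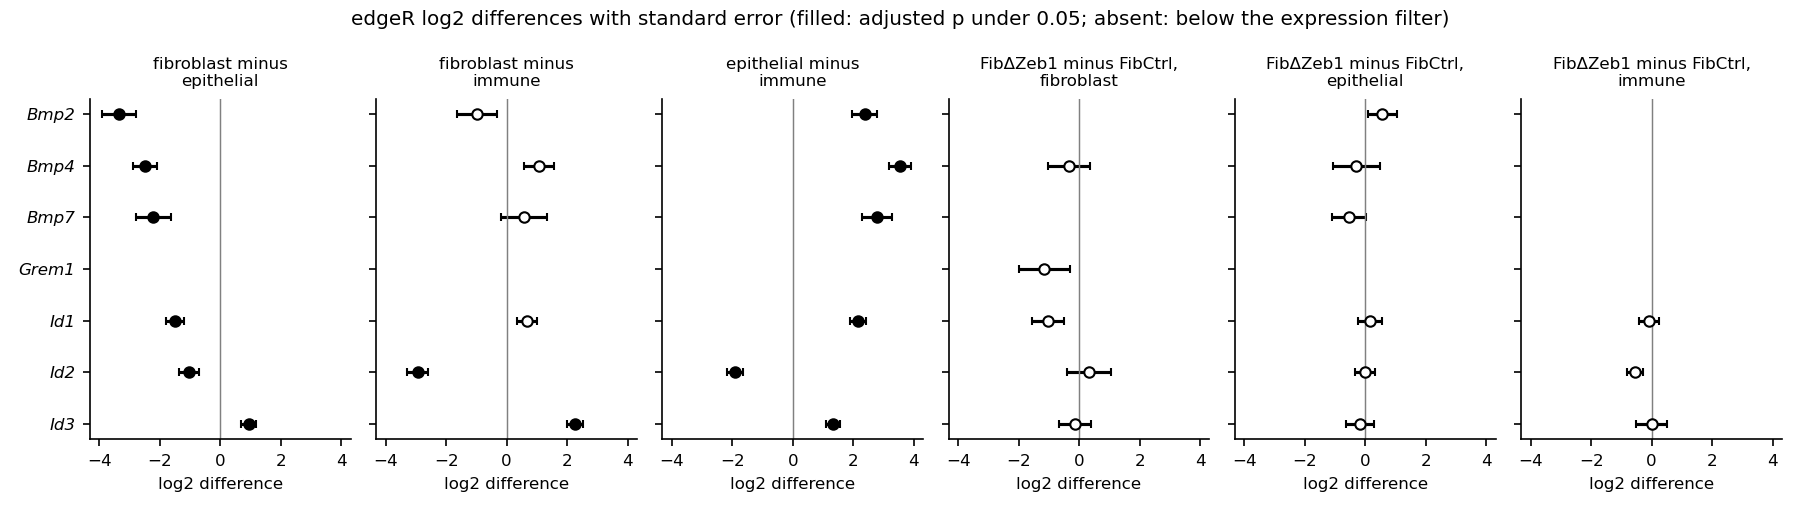
Differences between classes (first 3 panels) and between genotypes (last 3 panels) for each member that passed the expression filter, on the log2 scale, as edgeR estimates with standard errors. Filled points passed an adjusted p of 0.05. Between classes 14 of 18 estimates passed, and between genotypes none of 14 did.

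No gene was called for a difference in the effect of genotype between compartments, in a fit that held no term for the plate. Sums of the same mouse entered this fit as separate samples, so its standard errors and p do not measure a difference within mice. With its interaction term 0 of 11629 genes were called for each pair of compartments. An unadjusted p under 0.05 was reached by 380, 452 and 228 genes for fibroblast minus epithelial, fibroblast minus immune and epithelial minus immune wells. Id1 gave an interaction of -1.25 (SE 0.65, adjusted p = 1.0 by edgeR) for fibroblasts minus epithelial wells.

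Other genes of the pathway were read from lists fixed by role, with 41 of 47 listed in the files. Of the antagonists, 5 of 12 were tested in the class fit and the others were not. All 5 were called higher in fibroblasts than in epithelial wells and than in immune wells. Over all genes tested 21.0% and 22.5% were called higher in fibroblasts. The expression filter also keeps a gene that is high in fibroblasts alone. Bmper stood at 182 CPM in fibroblasts against 4.23 CPM in epithelial and 6.54 CPM in immune wells. For such genes the call was favoured by their entry into the fit. The median log2 difference of the 5 antagonists was 5.83 against epithelial wells (-0.09 over all genes). Fstl1, a follistatin-like glycoprotein, stood at 5753 CPM in fibroblasts against 122 CPM in epithelial and 115 CPM in immune wells. Nbl1, a DAN family antagonist, stood at 428 against 9.93 and 16.8 CPM, and Twsg1, an extracellular modulator that can promote or inhibit BMP activity, at 111 against 64.1 and 33.5 CPM. Their log2 differences from epithelial wells were 5.99 (SE 0.44), 5.84 (SE 0.42) and 1.11 (SE 0.27), with edgeR adjusted p of 2.80e-09, 2.35e-09 and 0.00245.

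Of the receptors, 6 of 8 tested were called higher in fibroblasts than in epithelial wells and 1, the decoy receptor Bambi, lower. Over all genes 21.0% were called higher in fibroblast and 21.5% higher in epithelial wells. The same filter applied, and some receptors could enter through fibroblasts. Acvrl1 and Eng stood at 37.3 and 71.9 CPM in fibroblasts against 0.365 and 0.876 CPM in epithelial wells. The type II receptor Bmpr2 stood at 154 CPM in fibroblast, 95.7 CPM in epithelial and 55.5 CPM in immune wells (log2 difference from epithelial wells 0.98, SE 0.17, adjusted p = 0.000126 by edgeR). The type I receptor Bmpr1a stood at 97.2, 69.3 and 14.9 CPM (0.99, SE 0.24, adjusted p = 0.00212), and Acvr1 at 118, 47.2 and 30.9 CPM (1.62, SE 0.26, adjusted p = 5.36e-05). The transducers Smad4 (127, 148 and 100 CPM) and Smurf1 (50.3, 87.9 and 24.9 CPM) did not pass between fibroblast and epithelial wells, and Smurf2, a ubiquitin ligase that limits SMAD signalling, was higher in fibroblasts (0.84, SE 0.19, adjusted p = 0.00171).

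Of the further response genes, the inhibitory Smad6 was higher in fibroblasts than in epithelial wells (41.1 against 25.3 CPM, log2 difference 0.89, SE 0.35, adjusted p = 0.0463 by edgeR) and reached 303 CPM in pericytes, the class that was also highest in Id3. Smad7 (88.8 against 165 CPM) and Id4 (12.9 against 25.3 CPM) did not pass. Of the other ligands, Bmp8b lay in epithelial wells (27.0 CPM against 0.287 CPM in fibroblasts, log2 difference -7.50, SE 0.95), an uncertain value because Bmp8a is a near-identical copy. Gdf10 lay in fibroblasts (35.1 against 0.438 CPM, log2 difference 6.50, SE 0.53, adjusted p = 3.76e-08). Bmp8b and Gdf10 could each enter the fit through the class where they were high. Gdf6 was not tested there and stood at 20.5 CPM in fibroblasts and 101 CPM in mesothelial wells. In total 14 of 23 pathway genes tested were called higher and 2 lower in fibroblasts than in epithelial wells, 19 were called higher and none lower than in immune wells (by edgeR; 4 did not pass), and 11 were called higher and 3 lower in epithelial than in immune wells. Over all 10229 genes, 21.0% were called higher and 21.5% lower in fibroblast than in epithelial wells, 22.5% higher and 21.9% lower in fibroblast than in immune wells, and 29.5% higher and 25.9% lower in epithelial than in immune wells. The counts of pathway genes include genes that could enter the fit through the class where they were high. Between genotypes 0 of 26 were called in fibroblasts, 0 of 22 in epithelial and 0 of 9 in immune wells by edgeR. Among the genes named here the largest difference was that of Gdf6 in fibroblasts (log2 2.76, SE 1.21, adjusted p = 0.836), and in immune wells Smad7 differed by -0.83 (SE 0.32) and Twsg1 by -1.09 (SE 0.45), with adjusted p of 1.0.

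Genes with the most similar pattern were found by the correlation of log2 CPM over 40 sums of 10 classes by plate. These sums share plates and depth, and the values are descriptions. For Grem1 they were Duox1 (r = 0.97), Zfp521 (0.97), Slc10a6 (0.97), Zfp423 (0.96) and Tek (0.96). Outside fibroblasts each of these sums held at most 1 Grem1 transcript, so its r values depend on the prior count. The part of depth in them was not tested, and they do not show a shared pattern. For Bmp7 they were Ano9, Mycl1, Wbscr25, Gm10825 and Exph5, with r from 0.91 to 0.92, and for Bmp2 Cgnl1 (0.85), Nav2, Fnbp1l, Galnt3 and Nme4 (the last 0.77). Bmp4 was nearest to Cldn3 (0.82), Igfbp2, Sccpdh, Gtf2ird1 and C77080 (0.79). Id1 was nearest to Sccpdh (0.77), Agrn, Pawr, Ptprd and Fgfrl1 (0.75), so that Sccpdh appeared beside both Bmp4 and Id1. Id2 was nearest to Lfng (0.79), Tnfrsf1b, Dgkz, Runx3 and Lcp2 (0.77), and Id3 to Kdelr2 (0.80), Laptm4a (0.79), Cd63, Ptov1 and Nav1 (0.71).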

How the data were processed

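Per the labels and the methods, the read alignment used bwa against Ensembl transcripts of GRCm38, and the submitters' processing notes also name Cell Ranger 2.1.1. The deposited values were estimated counts: UMI counts corrected for collisions, 86.3% of them whole, not scaled to depth, with 1 table per plate. A gene not listed for a plate was taken as 0. Strand use in counting is not given in the sources used here.

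Spike-in and mitochondrial rows were left out. Wells were kept with at least 500 transcripts and a mitochondrial share within 3 median absolute deviations of their plate, and were grouped by Leiden clustering (2000 variable genes, 20 components, 15 neighbours, resolution 1; Python 3.11.15, leidenalg 0.10.2, scikit-learn 1.9.0). Members and pathway genes were left out of clustering and of markers. A cluster was named where its marker score reached 0.5 with at least 3 markers detected in 10% of wells. The score limits, and the rule that left a cluster led by seminal vesicle genes (Svs) unnamed, were chosen after seeing the data. The 406 unnamed wells (22.2%) entered no comparison. Well gates and empty control wells were not used here, and no doublet caller was run. The members and the gene lists were chosen with earlier results of these data known.

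Counts were summed per plate and class, rounded, and tested in plates with at least 10 wells of the class by edgeR 4.0.16 (R 4.3.3, quasi-likelihood, TMM, filterByExpr, Benjamini-Hochberg over all genes, threshold 0.05), genotype alone or class with the plate as block. DESeq2 1.42.0 was an alternative. Members were also compared by exact permutation of plate CPM. The genotype fits of fibroblast and epithelial wells recovered large known changes of well-counted genes in simulated data. Smaller changes, such as those seen for the members, and changes of sparser genes were not simulated. Plates are single mice, intervals are 95% and cover counting error only, and a count of 0 is given with its upper exact limit. The named genes were the members, Zeb1, the 3 most abundant genes of each pathway list, and for each member with at least 100 transcripts the 5 genes most alike over class sums; other genes were named only as leading genes of clusters, or where few passed a test. The most alike genes used a prior count of 2. Coordinates are GENCODE M21 and RefSeq GRCm38.p6.

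Same-numbered plates shared a flow cell, numbers 1 and 2 being the first and 3 and 4 the second. Their deviations from the group means correlated by 0.539, 0.254, 0.137 and 0.102 in epithelial wells. In immune wells they correlated by 0.108, 0.208, 0.099 and 0.088, and in fibroblasts only 2 pairs could be formed. Plates of unlike number were not compared in this way, so these values do not decide whether the numbers pair the samples.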

Additional observations from a re-analysis of the deposited data

Results flagged for a closer look

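Over 24 groups of 4 plates of a member in a class, 5 had a plate far from the other 3. Chance flags about 1 in 20, but the groups share plates and those of Chrdl1 hold few transcripts. The count is therefore not read as more than chance gives. Bmp2 in immune wells reached 77.2 CPM on FibCtrl replicate 3, against 0 to 8.61 CPM on the other FibCtrl plates, and 17 of the 23 wells of the Alox15 macrophage cluster came from that plate. Bmp4 in epithelial wells reached 396 CPM on FibΔZeb1 replicate 1, against 75.9 to 92.2 CPM on the other FibΔZeb1 plates, and 39 of its 47 epithelial wells lay in cluster 9. Bmp7 in epithelial wells was 35.3 CPM on FibΔZeb1 replicate 4, against 17.7 to 19.6 CPM on the others. Chrdl1 in epithelial wells was 26.8 CPM on FibCtrl replicate 3 and 7.53 CPM on FibΔZeb1 replicate 2, against at most 0.692 CPM on the other plates.

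Wells that no marker list named lay outside all comparisons, and 8 members were found there above the limit that a count of 0 allows. Their levels over the 406 wells were 13.8 CPM for Bmp2, 53.1 CPM for Bmp4, 20.7 CPM for Bmp7, 9.84 CPM for Grem1, 5.90 CPM for Chrdl1, 65.9 CPM for Id1, 251 CPM for Id2 and 107 CPM for Id3. Id2 there was highest in the cluster led by Mmp12 and Arg1 (966 CPM over 36 wells), and 24.9% of its unnamed transcripts came from 1 well.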

How the results depend on the processing

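Every member call between epithelial and immune wells kept its direction and threshold in the 11 alternatives run, and of 198 values of member differences between classes 189 kept both. Calls were lost for Bmp4 between fibroblast and epithelial wells with classes from marker sums (-0.82), and for Id2 without FibΔZeb1 replicate 1 or 3. Calls were gained between fibroblast and immune wells for Bmp4 (2.30) and Id1 (1.04) with marker sums, and without FibΔZeb1 replicate 1 (Bmp4, 1.52) or replicate 3 (Id1, 0.92). Bmp7 there turned to -0.037 with marker sums and ran from -1.23 to 0.86 leaving out 1 plate.

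Between genotypes no member was called in any alternative, and 36 of 195 values turned sign. The cause of these changes was not tested. The count of genes called in fibroblasts, 1, was 34 by DESeq2, 325 with no expression filter, 27 with the flow cell as covariate, 0 with marker sums, 0 with the wells with Ptprc or Epcam kept, and 0 to 7 leaving out 1 plate. DESeq2 called 1 gene in epithelial and 1 in immune wells, and no filter gave 3 in immune wells.

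The replicate block raised the fibroblast count to 17, where only 2 pairs could be formed (correlations 0.307 and 0.178). With the block, Id2 in epithelial wells turned to 0.090, Id3 in fibroblasts to 0.18 and Id3 in immune wells to 0.32, and no call of a member changed.

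In log2 differences between genotypes, other signs turned as follows. With marker sums Bmp4 in fibroblasts was 0.31, and in immune wells Id2 was 0.059 and Id3 0.094. With plates of at least 5 wells Bmp4 was 0.39 and Id3 0.70 in fibroblasts. With Ptprc or Epcam wells kept Grem1 was 0.090 and Id3 0.012. With the flow cell Id2 in epithelial wells was 0.010, Id3 in fibroblasts 0.15 and Id3 in immune wells 0.061, and with no filter Id3 in immune wells was 0.030. Without both plates numbered 1, an alternative chosen after seeing the data, epithelial Bmp2 was -0.0022 and Id2 0.23.

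Leaving out 1 plate gave -1.31 to 0.36 for Bmp4, -0.85 to 0.37 for Bmp7, -0.16 to 0.43 for Id1, -0.19 to 0.38 for Id2 and -0.63 to 0.13 for Id3 in epithelial wells. In fibroblasts it gave -0.89 to 0.71 for Bmp4, -0.45 to 2.40 for Id2 and -0.69 to 0.82 for Id3, with FibCtrl replicate 1 as the plate left out at each highest value. In immune wells it gave -0.19 to 0.11 for Id1 and -0.31 to 0.82 for Id3. Only 2 FibCtrl plates had enough fibroblasts, and Bmp5, Grem1 and Chrdl1 rest on few transcripts.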

Other observations

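Ligand and Id levels were set side by side over the 8 epithelial plates, as 9 relations of Bmp2, Bmp4 and Bmp7 with Id1, Id2 and Id3. None passed (permutation p, two-sided, adjusted over the 9). The strongest was Bmp4 with Id1, with Pearson r = 0.40 (permutation p = 0.321, adjusted 0.961) and Spearman rho = 0.40 (permutation p = 0.327, adjusted 0.945). Without the 2 plates farthest from the median of Bmp4 r was 0.68. Bmp4 with Id3 gave r = 0.30 (permutation p = 0.453, adjusted 0.961) and rho = 0.26 (permutation p = 0.536, adjusted 0.945), and r = 0.84 without those 2 plates, over 6 plates. Bmp4 with Id2 gave r = 0.20 (permutation p = 0.655, adjusted 0.961), rho = 0.29 (permutation p = 0.501, adjusted 0.945) and r = 0.96 without them. Over all 8 plates r was -0.089, -0.053 and 0.076 for Bmp2 with Id1, Id2 and Id3, and 0.038, -0.14 and 0.27 for Bmp7. Leaving out the 2 plates farthest from the median of these ligands gave -0.48, -0.37 and -0.088 for Bmp2 and -0.31, -0.51 and -0.23 for Bmp7. The plates left out were chosen by the ligand values themselves. The r values without them carry no test, so no conclusion is drawn from them. FibCtrl replicate 2, the shallowest plate and the highest in Bmp4, was low in all 3 Id genes.

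Pericytes, 24 wells of which 7 came from FibCtrl replicate 1 and 14 from FibΔZeb1 replicate 1, held the highest levels among the named classes of Id3 (1028 CPM), of the inhibitory Smad6 (303 CPM), of Id4 (62.7 CPM), of the Notch and BMP target Hey1 (51.1 CPM) and of Atoh8 (39.5 CPM). Bmper, a secreted modulator of BMP ligands, stood at 55.97 CPM in contractile fibroblasts against 282 CPM in Dpt and Lum fibroblasts. These genes were chosen after their values were seen, and the differences were not tested.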
